A study of Mus musculus with 8 samples.

Results

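The Forkhead box (Fox) genes encode transcription factors that share a winged helix DNA binding domain. Here they were taken as the protein-coding genes of the mouse RefSeq table (build mm10, GRCm38) whose symbol is Fox with a letter from a to s and a number, 1 gene of that form not being analysed here. That gave 43 of 21887 protein-coding genes, described by where ZFP281, a zinc finger transcription factor, bound near them. Spheres were grown for 7 days in mammosphere medium on plates of ultra-low adhesion, from digested mammary tissue of FvB mice that carry the HER2/Neu oncogene under the MMTV promoter, which drives it in mammary epithelium. The early lesion (EL) group came from animals of 14 to 18 weeks with no palpable tumour, and the primary tumour (PT) group from tumours of animals older than 20 weeks, so stage, age and source tissue differ together. Both groups carry the transgene, and no group without it was included. ZFP281 chromatin immunoprecipitation was sequenced in 3 libraries per group, labelled as biological replicates, and the 1 input per group was not analysed here. The tissue label reads mammary lung for EL and breast tumor for PT, both are labelled breast cancer cells, and the labels do not say which animals or how many gave each library.

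Forkhead factors of the FoxO subfamily are held in the cytoplasm when insulin or growth factor receptors, HER2 among them, signal through PI3K and AKT, and enter the nucleus when that signal falls. There they activate genes of cell cycle arrest, stress defence and autophagy. FoxM1 drives genes of mitosis, FoxP and FoxK proteins act largely as repressors, FoxJ1 directs the making of motile cilia, and many of the others pattern the embryo. ZFP281 is known to bind G-rich DNA, and its own effect on any Fox gene is not measured by these lists.

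Each library is a list of summits, single positions with a score taken to be a −log10 q-value. In replicates 1, 2 and 3 the EL lists were 8588, 15770 and 7055 summits long, and the PT lists 2897, 4030 and 6033. Read depth is unknown, and PT lists are the shorter ones. Group comparisons are therefore given in full lists and in equal lists, the 2897 top-scoring summits of each library. The lowest score in the equal lists was 12.5, 23.3 and 10.3 in EL replicates 1 to 3 and 1.42, 6.61 and 8.74 in PT replicates 1 to 3. A summit absent from an EL equal list can therefore score above one kept in a PT equal list. A percentile below is the share of a library's own list with a score at or below that of the summit. Full lists differ in length, so an order of full-list percentiles between groups shows no change by itself, and is given beside that in equal lists. A summit within 1 kb of either end of the annotated gene is called a boundary summit.

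Of 43 Fox genes, 27 matched an entry in the RefSeq promoter table, with 32 promoters of 300 bases (250 before to 50 after a start site, build GRCm38.p6). A Foxp1 promoter with an EL replicate 3 summit inside, and those of Foxj3, which like Foxp1 had a boundary summit in all 6 libraries, are not printed. The sequences of 5 are printed here. An EL summit lies inside the first 3, Foxf2, Foxl2 and Foxo3, and Foxj2 and Foxo1 carried a boundary summit in all 6 libraries. They run 5′ to 3′ on the strand of the gene, and capitals mark the G-rich words GGGAGGG or GGGTGGG on either strand, so that a match on the opposite strand reads as its complement. The windows are chr13:31625566-31625865 (plus strand) for Foxf2, chr9:98955357-98955656 (plus) for Foxl2, chr10:42276646-42276945 (minus) for Foxo3, chr6:122819934-122820233 (plus) for Foxj2 and chr3:52268087-52268386 (plus) for Foxo1.
Foxf2: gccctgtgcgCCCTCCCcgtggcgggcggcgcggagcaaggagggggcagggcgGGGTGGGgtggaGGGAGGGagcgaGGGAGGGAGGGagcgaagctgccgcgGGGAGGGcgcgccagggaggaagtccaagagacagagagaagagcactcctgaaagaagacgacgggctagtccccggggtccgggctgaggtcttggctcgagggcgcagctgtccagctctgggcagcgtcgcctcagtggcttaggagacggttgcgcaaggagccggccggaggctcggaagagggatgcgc
Foxl2: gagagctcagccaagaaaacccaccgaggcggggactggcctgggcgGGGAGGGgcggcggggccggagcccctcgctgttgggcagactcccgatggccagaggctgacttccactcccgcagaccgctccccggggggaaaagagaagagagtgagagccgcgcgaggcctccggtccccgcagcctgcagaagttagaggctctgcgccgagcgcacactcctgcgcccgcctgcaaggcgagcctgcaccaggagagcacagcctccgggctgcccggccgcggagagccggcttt
Foxo3: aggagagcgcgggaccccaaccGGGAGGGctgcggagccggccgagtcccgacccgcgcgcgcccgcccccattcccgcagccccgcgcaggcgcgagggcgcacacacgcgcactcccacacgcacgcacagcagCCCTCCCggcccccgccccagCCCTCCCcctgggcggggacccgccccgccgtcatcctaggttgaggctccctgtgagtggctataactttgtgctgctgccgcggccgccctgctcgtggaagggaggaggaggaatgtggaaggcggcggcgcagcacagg
Foxj2: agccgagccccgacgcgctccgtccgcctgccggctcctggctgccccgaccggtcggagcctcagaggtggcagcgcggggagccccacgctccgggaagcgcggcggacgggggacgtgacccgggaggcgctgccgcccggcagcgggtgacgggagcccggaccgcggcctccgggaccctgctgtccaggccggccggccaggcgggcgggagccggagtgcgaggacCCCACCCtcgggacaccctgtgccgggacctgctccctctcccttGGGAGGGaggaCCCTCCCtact
Foxo1: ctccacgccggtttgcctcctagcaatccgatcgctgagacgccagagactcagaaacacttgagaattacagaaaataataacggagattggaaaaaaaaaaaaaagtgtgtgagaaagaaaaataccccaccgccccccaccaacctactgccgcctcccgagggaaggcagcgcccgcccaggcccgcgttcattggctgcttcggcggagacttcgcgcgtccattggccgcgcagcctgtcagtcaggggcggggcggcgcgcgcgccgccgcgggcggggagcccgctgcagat

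The Foxf2 promoter held 5 matches of GGGAGGG and 1 of GGGTGGG, overlapping matches counted, and the Foxo1 promoter held neither. Foxo3 held 3 matches of GGGAGGG. Foxj2 held 2 of GGGAGGG and 1 of GGGTGGG, and Foxl2 held 1 of GGGAGGG. At least 1 of the 2 words stood in 19 of 32 Fox promoters (59.4%), against 33.5% of all 32851 promoters of the table. The Sp and Klf box GGGCGGG stood in 19 Fox promoters (59.4%) and in 25.6% of all, and the forkhead core word TGTTTAC in 0 and 3.65%. Fox promoters were also richer in G and C, with a median of 62.8% against 52.7%, and the part of base composition in these shares was not tested. Of the 12 promoters of Fox genes with a boundary summit in any library, 10 held GGGAGGG or GGGTGGG (83.3%), and of the 20 others 9 (45.0%), with median GC of 70.8% and 59.7%. Promoters were grouped here by gene and not by where the summit lay. The Foxa3 boundary summits lay 10.4 kb or more from its start site, and Foxp1 entered with internal start sites too. Only the promoters of Foxf2, Foxl2 and Foxo3 and 1 of Foxp1 had a summit inside. The shares are therefore not those of bound promoters. These are counts of letters in a window and not measured sites.

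Boundary summits were found at 16 of 43 Fox genes in at least 1 library (37.2%), against 23.1% of all protein-coding genes. A Fox gene carried them in 1.37 libraries on average and a protein-coding gene in 0.704, with a median of 0 for both. All 6 libraries held one at Foxo1, Foxo3, Foxj2, Foxj3 and Foxp1, 5 of 43 genes, where 4.39% of all genes met that rule. At least 2 EL libraries held one at 12 Fox genes (all genes, 14.2%) and at least 2 PT libraries at 7 (all genes, 7.46%). In equal lists 8 Fox genes had a boundary summit in any library (all genes, 10%), 5 in at least 2 EL libraries (5.78%), 7 in at least 2 PT libraries (5.72%), and 3, Foxo1, Foxo3 and Foxj2, in all 6 (2.99%). For comparison, all 6 full lists held a boundary summit at 2 of 19 Sox genes and at 4 of 33 Klf, Sp and Egr genes, other families of transcription factors. At least 1 full list held one at 42.1% of the Sox genes and 48.5% of the Klf, Sp and Egr genes. These families carried them in 1.74 and 1.88 libraries per gene on average, so the Fox values were not the higher ones.

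**Figure D1:**
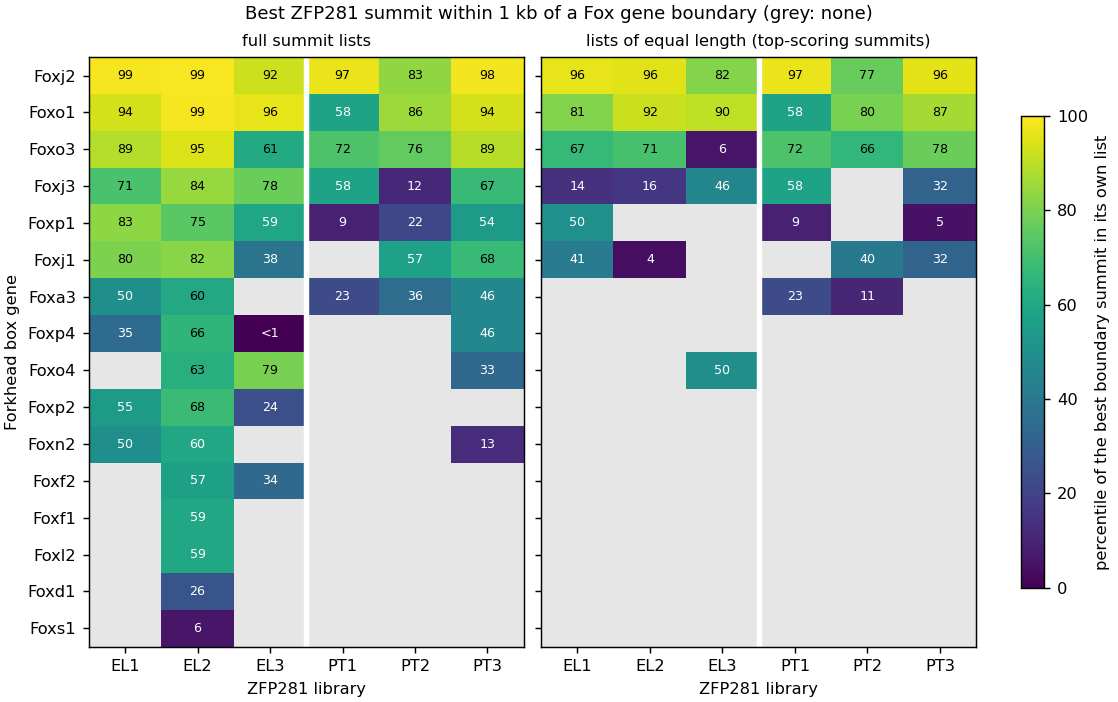
Percentile of the best ZFP281 summit within 1 kb of a gene boundary for the 16 Fox genes that had one, by library (EL1 to EL3, PT1 to PT3), in full lists (left) and in equal lists of 2897 summits (right). Grey marks no summit; Foxj2, Foxo1 and Foxo3 are filled in all 6 columns of both panels, and the lowest 4 genes are filled in EL2 of the full lists alone.

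Of the 4 FoxO genes, which answer to insulin and growth factor signals, Foxo1 and Foxo3 had a boundary summit in all 6 full lists, Foxo4 in 3 and Foxo6 in none. At Foxo1 all 6 summits lay from 424 to 454 bp into the gene from its start site, in a region of 31 bp (chr3:52268761-52268791). EL replicates 1 to 3 scored 37.1, 102 and 43.4, and PT replicates 1 to 3 scored 11.4, 22.1 and 40.4. Equal lists put it at percentiles of 81.0, 92.1 and 90.5 in EL, and of 58.2, 79.8 and 86.6 in PT. PT replicate 1 was the lowest, PT replicate 3 lay above EL replicate 1, and the groups overlapped (exact permutation p = 0.2, two-sided). The Foxo1 promoter printed above ends upstream of these summits.

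Foxo3 had its steady region deeper in, from 873 to 933 bp into the gene (chr10:42275762-42275822), again in all 6 libraries. Single further summits lay 45 bp inside in EL replicate 2, 205 bp upstream in EL replicate 3 and 433 bp inside in PT replicate 3. The best boundary summit of Foxo3 had equal-list percentiles of 67.1, 70.9 and 5.70 in EL and 71.9, 66.3 and 77.5 in PT. The value of EL replicate 3 is that of its upstream summit, since the steady region was not in its equal list, and the values of the other 5 libraries are those of the steady region. The noncoding gene Gm38485 also has an end within 1 kb, so a summit there cannot be given to Foxo3 alone.

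Foxo4 had a region at its upper end, within 1 kb of an end of Gm614, in EL replicates 2 and 3 and PT replicate 3 (33.2, 79.3 and 33.3 in full lists), and a separate summit of EL replicate 2 at its lower end (62.6). In equal lists EL replicate 3 alone held one (49.6). Foxo6, which is known mainly from the brain, had no boundary summit and 6 regions in its body or within 20 kb. The strongest of these lay 17.9 kb outside the gene, inside the noncoding gene Gm36134 (chr4:120249081-120249153), at 54.6, 62.6 and none in the EL full lists and 89.5, 91.2 and 48.2 in the PT full lists. In equal lists it was present in PT replicates 1 and 2 (89.5 and 87.7) and in no other library.

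All 3 FoxJ genes had a boundary summit. Foxj2 and Foxj3 encode broadly expressed activators and Foxj1 the regulator of motile cilia. The summits of Foxj2 stood just upstream of the printed promoter, from 313 to 378 bp before the start site (chr6:122819806-122819871). They scored 71.7, 129 and 31.3 in EL and 49.8, 20.3 and 72.1 in PT, with equal-list percentiles of 96.1, 95.5 and 81.5 against 97.2, 76.8 and 96.0. Both groups covered the same range (exact permutation p = 0.9, two-sided), and in 4 of 6 libraries the Foxj2 summit stood above 95% of its equal list.

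Foxj3 was bound from 290 to 496 bp into the gene in all 6 full lists (chr4:119539951-119540157). Equal lists placed it at 14.4, 15.7 and 45.8 in EL and 58.0, none and 31.9 in PT, so that the highest and the lowest library were both PT. Foxj1 had summits 112 to 189 bp beyond its upper end in 5 full lists, all but PT replicate 1, with equal-list percentiles of 41.4, 3.66 and none in EL and none, 40.5 and 32.3 in PT. An end of the ubiquitin ligase gene Rnf157 lies within 1 kb of the same summits. A second Foxj1 region (chr11:116327137-116327170) was held by PT replicates 2 and 3 alone, at percentiles of 63.7 and 65.8 in full lists and 49.5 and 28.7 in equal lists.

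**Figure D2:**
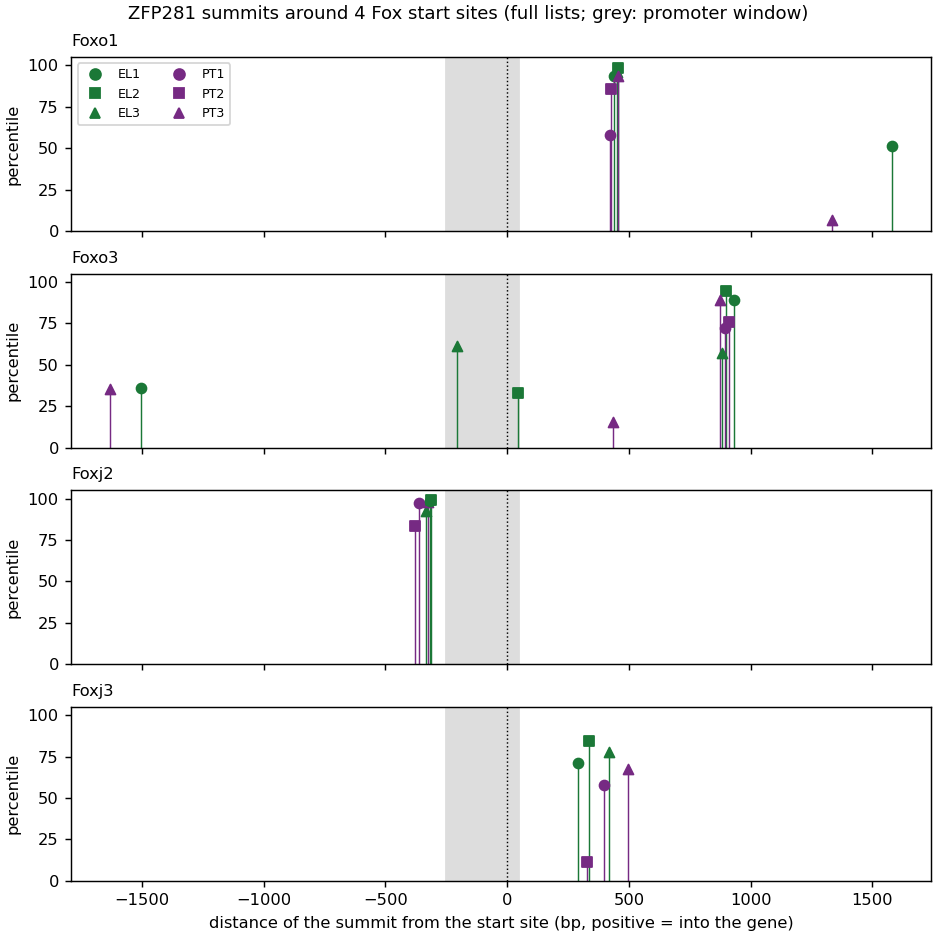
Distance of each ZFP281 summit from the start site (x axis, bp, positive into the gene) and its percentile in the full list (y axis) for Foxo1, Foxo3, Foxj2 and Foxj3, with circles, squares and triangles for replicates 1, 2 and 3, green for EL and purple for PT; grey is the 300-base promoter window. The Foxo1, Foxj2 and Foxj3 boundary summits lie outside the window, and the Foxo3 summits of all 6 libraries gather between 873 and 933 bp.

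FoxP genes encode repressors that act in lymphocytes, lung and brain. Foxp1 spans 597 kb and carried 13 regions, the most of any Fox gene. Its upper end, the one nearer its transcription start on the minus strand, had a summit in all 6 full lists (chr6:99522792-99523026), at percentiles of 83.1, 74.6 and 58.9 in EL and 9.18, 21.8 and 54.3 in PT. In equal lists that summit remained in EL replicate 1 (50), PT replicate 1 (9.18) and PT replicate 3 (4.80), and the groups overlapped (exact permutation p = 1, two-sided).

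A second region of Foxp1 lay inside the gene, 106 kb from the lower end and at -2970 bp (upstream) from an internal RefSeq start site (chr6:99031268-99031340), and all 6 full lists held it. EL full lists put it at percentiles of 7.95, 73.5 and 34.4 and PT full lists at 83.7, 97.4 and 94.3. In equal lists it was absent from every EL library and stood at 83.7, 96.4 and 88.1 in PT. This region was singled out after its values were seen. Of all 6114 regions in equal lists 6.23% were in every PT and no EL library, and of 24 Fox regions 2 (8.33%), this one and the Foxk1 region given further on.

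**Figure D3:**
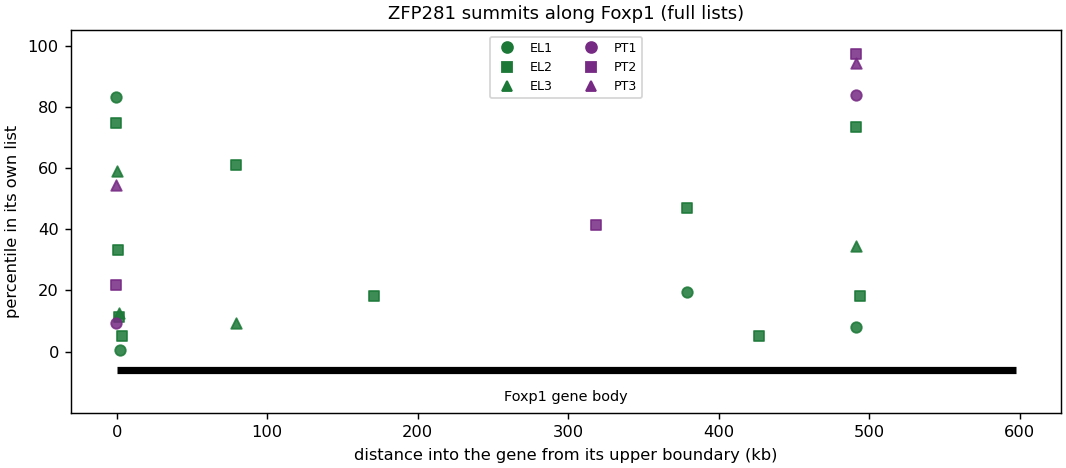
Every ZFP281 summit of the full lists along Foxp1, by distance from the upper gene end (x axis, kb) and percentile in its own list (y axis), with circles, squares and triangles for replicates 1, 2 and 3, green for EL and purple for PT. All 6 libraries have a symbol at the upper end and at the internal region, 106 kb from the other end; full lists differ in length, so heights are read within a library and not between groups.

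Foxp2, a repressor known from speech and motor circuits, was the single Fox gene with a boundary summit in every EL and no PT full list, where 1.94% of all genes met that rule. Its percentiles were 54.6, 68.3 and 24.5. The summits of replicates 1 and 2 lay 508 to 522 bp outside the lower end and that of replicate 3 lay 137 bp inside. None of them was among the 2897 top-scoring summits of its library, so Foxp2 had no boundary summit in equal lists. Foxp4 had boundary summits in the 3 EL libraries and PT replicate 3 (34.8, 65.6, 0.312 and 46.5 in full lists), and in no equal list. They did not form a single region. The PT summit lay 319 bp inside the gene, and those of EL replicates 1, 2 and 3 lay 416, 844 and 323 bp outside it. The EL ones lay beside Gm46601. It also had a region inside the gene, 20.5 kb from an end (chr17:47887677-47887775), in 5 full lists, all but PT replicate 1, and in the equal lists of EL replicate 2 (35.8) and PT replicate 3 (31.9). Foxp3, the regulatory T cell factor, had no summit in its body or within 20 kb in any library.

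No Fox gene had a boundary summit in every PT and no EL full list (all genes, 0.0457%). In equal lists 0 Fox genes met the EL rule (all genes, 0.379%) and 0 the PT rule (0.338%). By percentile, every EL library stood above every PT library in full lists at Foxo1, Foxj3, Foxp1 and Foxp2, as it did at 23.2% of the 5047 genes with a boundary summit, and the opposite held at 0 Fox genes and 0.733% of all. Each of the 4 had p = 0.1 and adjusted p = 0.417 in the two-sided exact permutation test, adjusted over all 5047 genes by Benjamini-Hochberg. At Foxo1 that order rested on EL replicate 1 and PT replicate 3, both at 93.6. In equal lists neither order occurred at a Fox gene, against 12.1% and 9.18% of 2189 genes. The smallest p for 3 against 3 libraries is 0.1, so no gene could pass 0.05, and p measures only the spread between these libraries.

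Counted per library, Fox genes with a boundary summit numbered 10, 16 and 10 in EL and 6, 7 and 10 in PT full lists. On average 12.0 ± 3.46 (SD, n = 3) were bound in EL and 7.67 ± 2.08 (SD, n = 3) in PT, or 27.9% and 17.8% of the 43, against 15.3% and 8.14% of all genes. PT replicate 3 had as many as EL replicates 1 and 3, and without EL replicate 2 the difference fell from 4.33 to 2.33 genes. Equal lists gave 6, 5 and 5 Fox genes in EL and 6, 5 and 6 in PT, or 12.4% and 13.2%, against 6.0% and 5.91% of all genes. The difference between groups was then -0.333 genes, EL minus PT, inside the spread of either group (5.33 ± 0.577 and 5.67 ± 0.577, SD, n = 3).

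With the gene body and 20 kb on either side included, the full lists of EL reached 15, 28 and 16 Fox genes and those of PT 9, 13 and 15. The difference of 7.33 genes fell to 3.17 without EL replicate 2. In equal lists the order of the means turned, with 7, 7 and 6 Fox genes in EL and 9, 11 and 8 in PT (15.5% and 21.7%, all genes 17.2% and 16.8%). The lowest PT library stood 1 gene above the highest EL library, and the difference was -2.67 genes. Over this wider window Foxo6, Foxn1, Foxa3, Foxp1, Foxc1 and Foxh1 had a summit in more PT than EL equal lists, and Foxj3 and Foxo4 in more EL than PT equal lists. Foxc1 and Foxh1 had theirs in PT replicate 2 alone, that of Foxh1 inside Ppp1r16a, and the Foxn1 region lay at ends of Pigs and Unc119. At that Foxn1 region the EL summits left out of equal lists scored up to 22.4, and the PT summits kept scored 3.28 and 12.3. All 6 full lists held a summit in this window at 9 Fox genes (all genes, 13%), every EL and no PT library at Foxn3 and Foxp2 (5.19%), every PT and no EL library at 0 (0.206%), and any library at 28 (51.4%). In equal lists all 6 held one at Foxj2, Foxk1, Foxo1 and Foxo3 (8.76%), and neither group alone at any Fox gene (EL 1.64%, PT 1.42%).

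**Figure D4:**
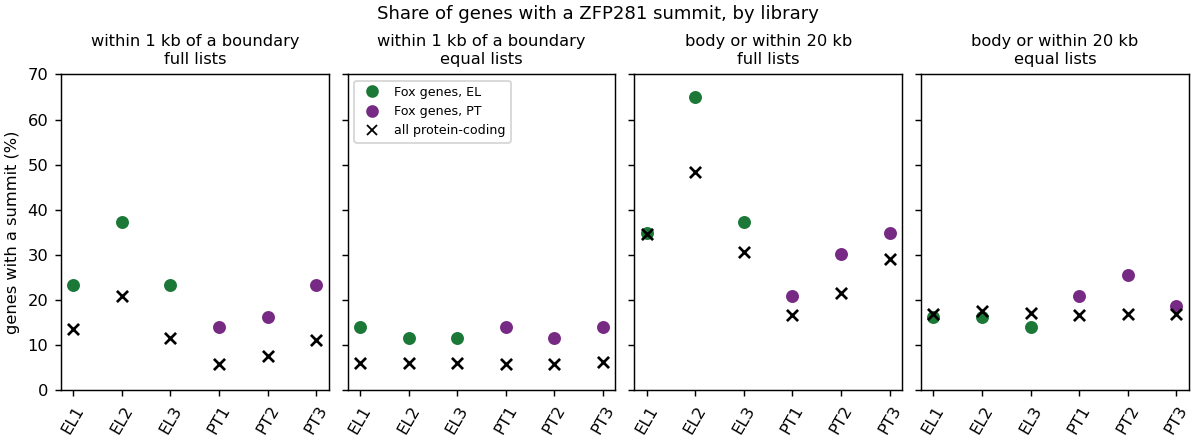
Share of genes (%) with a ZFP281 summit in each library, for the 43 Fox genes (circles, green for EL and purple for PT) and all 21887 protein-coding genes (crosses), for both windows in full and equal lists. In equal lists the boundary shares of Fox genes lie between 11.6 and 14.0 in all 6 libraries.

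FoxK, FoxM, FoxN and FoxR genes, 9 in all, had a boundary summit at 1 (11.1%, all genes 23.1%). It was Foxn2, with summits 115 and 117 bp inside its lower end in EL replicates 1 and 2 (49.7 and 59.6 in full lists). A separate region, 752 to 771 bp inside that end, was held by PT replicate 3 (12.6) and EL replicate 1 (5.73). No equal list held a boundary summit at Foxn2. Foxm1, the mitotic regulator, had 1 summit in all, 7.51 kb outside the gene in EL replicate 2, at a percentile of 13.9. Foxk2, Foxr1 and Foxr2 had none within 20 kb.

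Foxk1, a repressor that acts in nutrient and glycolytic control, was bound far from its ends. It had 7 regions and no boundary summit. Of these, 2 inside the gene were held by all 6 libraries in full and in equal lists. The region 25.2 kb from the lower end (chr5:142426701-142426824) had equal-list percentiles of 69.8, 41.9 and 51.2 in EL and 37.6, 77.3 and 74.7 in PT. The region 16.0 kb from the upper end (chr5:142445931-142446033) had 54.0, 69.1 and 73.7 in EL and 11.1, 58.5 and 61.9 in PT. PT replicate 1 was lowest at both, and the groups overlapped at both.

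Further regions lay in the flanks of Foxk1. Below the gene, a region 14.6 kb away (chr5:142386861-142386904), inside the gene Gm31127, was in every EL and no PT full list (68.7, 71.8 and 39.2), and in equal lists in EL replicate 1 alone (7.11). Above it, a region 11.8 kb away (chr5:142473775-142473811) was in every PT and no EL library, at 35.9, 69.9 and 67.3 in full lists and 35.9, 58.2 and 31.9 in equal lists. That region lies inside Ap5z1, the gene of an adaptor protein subunit, so it is nearer to another gene than to Foxk1.

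Foxn1, the thymic epithelium factor, and Foxn3, a checkpoint-related repressor, were also bound away from their ends. The Foxn1 region with the most libraries, 13.6 kb outside the gene (chr11:78343753-78343934), lay at ends of Pigs and Unc119. Its full-list percentiles were 65.3, 81 and 38.2 in EL and 3.87, 64.1 and none in PT, and equal lists held it in PT replicates 1 and 2 alone (3.87 and 50). The EL summits left out of equal lists scored 12.4, 22.4 and 6.69 in replicates 1 to 3. The PT summits kept scored 3.28 and 12.3 in replicates 1 and 2. A region inside Foxn1 (chr11:78382819-78382900) was in every EL and no PT full list, at 18.4, 65.6 and 12.7, and in no equal list. Foxn3 had 7 regions in full lists and 12 summits, all in EL. A region 147 kb from an end (chr12:99337124-99337263) had percentiles of 27, 40 and 30.2 in EL replicates 1, 2 and 3, and one 2.18 kb from an end (chr12:99561454-99561487) had 36.2, 45.9 and 32.6. None of the Foxn3 summits was in an equal list.

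The developmental subfamilies, 23 genes with a median length of 2.96 kb, had boundary summits at 6 of 23 (26.1%), against 23.1% of all genes and 18.9% of those under 20 kb. They were Foxa3, Foxf2, Foxf1, Foxl2, Foxd1 and Foxs1. Foxa3, a liver and gut endoderm factor, was the only one bound in PT, with summits 153 to 384 bp beyond the end of the gene that lies away from its start site. Full lists gave it percentiles of 49.7, 60.5 and none in EL and 22.8, 35.8 and 46.5 in PT, and equal lists gave 22.8 and 10.6 in PT replicates 1 and 2 alone. The EL summits left out of equal lists scored 8.65 and 11.4 in replicates 1 and 2, and the PT summits kept scored 6.15 and 7.3.

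Foxf2, a factor of mesenchyme, had a summit in EL replicate 3, 278 bp before the start site at a percentile of 34, and in EL replicate 2, 140 bp before it at 57.0. The latter falls within the printed promoter, on the last base of its last capitalised word, and a second EL replicate 2 summit lay 417 bp into the gene. Foxl2, an ovarian factor, had an EL replicate 2 summit 189 bp before its start (59.4). Foxf1, Foxd1 and Foxs1 had boundary summits in EL replicate 2 alone, at 59.4, 25.8 and 6.05. The Foxf1 summit, 956 bp from the gene and near the noncoding Fendrr, lay just inside the 1 kb window, while another summit of the same region, in EL replicate 1 at 10.6, lay just outside it. None of these 5 genes kept a summit in equal lists.

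With the body and 20 kb included, 12 of the 23 had a summit (52.2%), against 51.4% of all genes. Foxc1, Foxc2, Foxd4, Foxh1, Foxi1 and Foxl1 had a summit within 20 kb but none at an end, and the neighbours Foxc2 and Foxl1 share 1 summit of EL replicate 2. No summit lay within 20 kb of Foxa2, Foxb1, Foxb2, Foxd2, Foxd3, Foxe1, Foxe3, Foxi2, Foxi3 or Foxq1 in any of the 6 libraries. They and Foxk2, Foxp3, Foxr1 and Foxr2 were among the 15 of 43 with none.

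Bound and unbound Fox genes differed in gene length. All 5 Fox genes with a boundary summit in all 6 libraries were among the 14 of at least 20 kb (35.7%), and 0 of the 29 shorter ones had it. Over all protein-coding genes the shares were 5.6% and 3.36%. Any boundary summit was found at 8 of the 14 (57.1%) and 8 of the 29 (27.6%), against 28.0% and 18.9% of all genes. In the body or within 20 kb, EL libraries had 8.6, 16.4 and 7.08 summits per megabase around Fox genes, and PT libraries 3.29, 5.31 and 7.34. Around all genes EL had 6.91, 11.8 and 5.7 and PT had 2.4, 3.36 and 4.97.

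Merging summits at most 200 bp apart gave 89 regions at 28 Fox genes, of which 27 lay at an end, 34 deeper in the body and 28 outside. All 6 libraries held 8 (8.99%, all 19317 regions 8.14%), at Foxj2, Foxj3, Foxo1 and Foxo3 and 2 each at Foxk1 and Foxp1. Every EL and no PT library held 6 (6.74%, all regions 10%), 2 at Foxn3 and 1 each at Foxa3, Foxk1, Foxn1 and Foxo1. The Foxo1 one lay 10.3 kb upstream of the gene (chr3:52257992-52258060) at 44.4, 80.3 and 52.2. Every PT and no EL library held 1 (1.12%, all regions 0.704%). In equal lists 24 regions remained, with 4 in all 6 libraries (all 6114 regions, 16.3%), 0 in every EL and no PT (7.23%) and 2 in every PT and no EL. EL replicate 2 alone held 31 of the 89 (34.8%, all regions 33.3%). Without EL replicate 3 the regions of every EL and no PT library numbered 14, and without PT replicate 1 those of every PT and no EL library numbered 3.

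**Figure D5:**
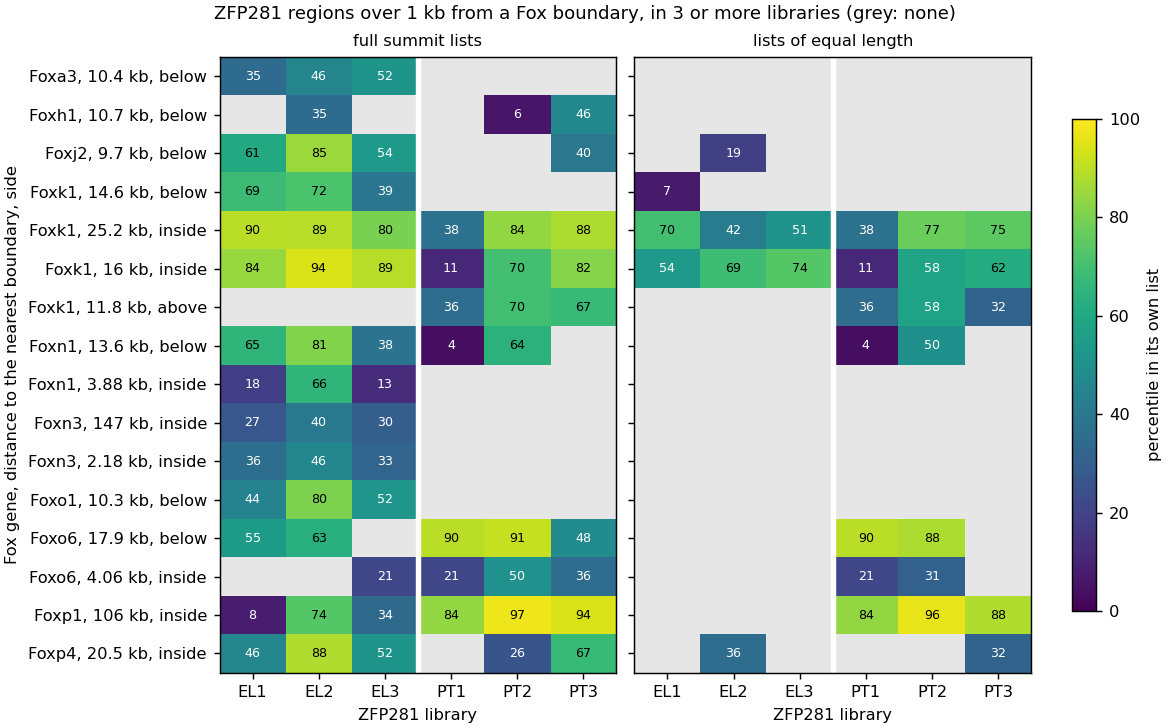
Percentile by library of the 16 regions that lie over 1 kb from an end of a Fox gene and were found in at least 3 full lists, in full lists (left) and equal lists (right), with the distance to the nearest gene end; below and above mean outside the gene towards smaller or larger coordinates. Grey marks no summit; in equal lists the Foxp1 region and the upper Foxk1 flank are filled in PT1 to PT3 alone.

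Genes linked to FoxO and FoxM1 were described by 3 lists, of the PI3K and AKT axis with FoxO partners, of FoxO targets, and of FoxM1 targets and partners. Of 30 axis genes 17 had a boundary summit in any library (56.7%, all genes 23.1%) and 5 in all 6 (16.7%, all genes 4.39%), namely Ep300, Ywhae, Insr, Irs2 and Ywhah. Ep300 encodes an acetyltransferase coactivator, Insr and Irs2 the insulin receptor and its adaptor, and Ywhae and Ywhah adaptors that hold phosphorylated FoxO proteins. Pik3ca, the catalytic subunit of PI3K, and Pik3r2, a regulatory one, had summits in every EL and no PT full list, at 59.6, 51 and 56.8 and at 13.8, 63.7 and 45.5, and in no equal list (2 of 30, 6.67%, all genes 1.94% in full lists). Per library the axis genes numbered 12, 17 and 13 in EL and 5, 6 and 12 in PT full lists, and 7, 5 and 7 against 5, 6 and 7 in equal lists. The mean shares in EL and PT were 46.7% and 25.6% in full lists (all genes, 15.3% and 8.14%). In equal lists they were 21.1% and 20% (all genes, 6.0% and 5.91%).

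Of 30 FoxO target genes 12 had a boundary summit in any library (40%, all genes 23.1%) and 5 in all 6 (16.7%, all genes 4.39%), Bcl2l11, Gadd45b, Insr, Irs2 and Bnip3, of which Insr and Irs2 also stand in the axis list. Bcl2l11 encodes the death inducer BIM, with percentiles of 91.7, 92.9 and 80.1 in EL and 78.8, 71.3 and 78.8 in PT full lists. That full-list order, every EL library above every PT library, held at 23.2% of the 5047 genes with a boundary summit. In equal lists all 6 libraries held a boundary summit at Bcl2l11. The stress genes Sesn2 and Sesn3, the transcription factor gene Klf2 and the autophagy gene Gabarapl1 had summits in every EL and no PT full list (4 of 30, 13.3%, all genes 1.94%). In equal lists 1 EL library each still held one at Sesn3 and Klf2. By library the bound FoxO targets numbered 9, 12 and 9 in EL and 5, 5 and 5 in PT full lists, and 5, 4 and 6 against 5, 5 and 5 in equal lists. The mean shares in EL and PT were 33.3% and 16.7% in full lists (all genes, 15.3% and 8.14%). In equal lists both were 16.7% (all genes, 6.0% and 5.91%). The cell cycle inhibitor gene Cdkn1a had none, and Cdkn1b had 1 in EL replicate 2 (25.8). Of 27 genes in the FoxM1 list 6 had a boundary summit in any library (22.2%, all genes 23.1%) and 1, Lin9, in all 6. Lin9 and Lin37, both among the 6, encode subunits of a cell cycle gene regulator that acts with FoxM1, and are not targets in the strict sense. The same holds for Lin54 and Mybl2, which had no boundary summit. By library the bound genes of the FoxM1 list numbered 3, 5 and 3 in EL and 2, 2 and 3 in PT full lists, and 1, 1 and 0 against 2, 1 and 0 in equal lists. Their mean shares in EL and PT were 13.6% and 8.64% in full lists and 2.47% and 3.70% in equal lists, beside the same shares of all genes.

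Summits do not measure expression, so the cell types in the spheres could not be checked by RNA. Of 6 fibroblast marker genes 5, 5 and 4 had a boundary summit in EL and 0, 0 and 1 in PT full lists (1, 3 and 4 against 0, 0 and 0 in equal lists), with Lum at none. Of 6 epithelial markers 1, 1 and 1 had one in EL and 1, 1 and 2 in PT full lists (0, 0 and 0 against 1, 1 and 2 in equal lists), with none at Epcam, Krt8, Krt5 and Krt14. Of 5 lung epithelium markers Sftpc alone had one, in the 3 EL libraries and PT replicate 3, and of 5 leukocyte and 4 endothelial markers none did. Of all protein-coding genes 13.5%, 20.8% and 11.7% had a boundary summit in EL and 5.76%, 7.53% and 11.1% in PT full lists. In equal lists the shares of all genes ran from 5.75% to 6.21%. The part of such cells in the Fox values was not tested.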

How the data were processed

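ZFP281 summits of 3 EL and 3 PT libraries were used, read as paired ends of 150 bp, per the labels. The authors deposited 1 list of summits per library, with a score read here as a −log10 q-value, since the lowest scores lie just above 1.30, the −log10 of 0.05. That reading is from the values. The submitters' processing notes name mm10, Bowtie2 2.3.4.3 and Picard. Which peak caller was used, and how inputs entered, is not given in the sources used here. A stricter caller could shorten a list and a deeper library could lengthen it, and depth is unknown.

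Computed from the lists on chromosomes 1 to 19, X and Y were summits within 1 kb of either end of a gene, summits in the body or within 20 kb, merged regions (200 bp) and percentiles within each list, in full and in lists cut to 2897. Genes and promoters came from RefSeq tables of GRCm38.p6. Each gene with a boundary summit in at least 1 library had a two-sided exact permutation test over its 6 libraries (20 relabellings). Benjamini-Hochberg adjustment ran over those genes, 5047 in full lists and 2189 in equal lists. No test was run over members. Members, lists, roles and tests were chosen with earlier results of these data known. Members with a boundary summit in at least 3 libraries, with EL and PT numbers that differ by at least 2, or with the most regions were described in full. Some Fox genes are not reported here. No pair of lists shared more than 81 positions. As a check of pairing, correlations of same-numbered EL and PT libraries were -0.0537, 0.00108 and -0.0221. Those of differently numbered ones ran from -0.0355 to 0.0615. So few values cannot decide whether replicate numbers pair libraries, and the libraries were treated as unpaired in the main test. Steps were tested on simulated data. Python 3.11.15 with numpy 2.4.6, pandas 2.3.3 and matplotlib 3.10.9 was used.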

Additional observations from a re-analysis of the deposited data

How the results depend on the processing

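The Fox genes with a boundary summit, EL minus PT, differed by 4.33, by -0.333 in equal lists, by 7.67 with a 5 kb window, and by 2.33 to 5.50 with a library left out. For the body and 20 kb the values were 7.33, -2.67 in equal lists and 3.17 to 9.67 with a library left out. Limits on score and other windows kept both differences above 0, as did leaving out summits at the end of another gene, an alternative chosen after seeing the data. Within replicate numbers (replicate block) the mean differences were 4.33 (SD 4.51) and 7.33 (SD 7.09). By boundary percentile 4 Fox genes had 3 differences above 0, as did 1361 of all 5047 genes with a boundary summit. The smallest exact p there is 0.25. The regions of all 6 libraries numbered 8, or 5 with merging at 50 bp, 4 in equal lists, 4 and 2 with a score of at least 5 and 10, and 8 to 10 with a library left out. Those of every EL and no PT library numbered 6, or 3 with merging at 50 bp, 0 in equal lists, 1 with a score of at least 10, and 6 to 14 with a library left out. Those of every PT and no EL library numbered 1, or 2 in equal lists, 0 with a score of at least 10, and 1 to 3 with a library left out. Fox genes whose EL percentiles all lay above PT numbered 4 (all genes with a boundary summit, 23.2%), and 0 in equal lists (12.1%). The cause of these shifts was not tested. A window at start sites alone was not run, since the promoter table held 27 of 43 genes. Depth limits all of this, as a gene without a summit may be bound below detection.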
